A study of Mus musculus with 12 samples.

Results

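The circadian clock genes described here were 10 listed genes (Per1, Per2, Per3, Cry1, Cry2, Dbp, Tef, Nr1d1, Nr1d2 and Clock), out of 25514 mouse genes with a row of counts. They were taken by name from a list and chosen with earlier results of these data known. Each gene was read from its transcript with the highest total count over all libraries, and all 10 were among the 12971 genes that passed the filter on low counts. RNA was sequenced from 12 libraries of conditionally immortalized mouse proximal tubule (PT) cells, the epithelium that takes up most of the filtrate in the kidney. There were 4 groups of 3 libraries: TβRII flox/flox PT cells (H2ts6;Tgfbr2fl/fl) and TβRII-/- PT cells (H2ts6;Tgfbr2-/-), which lack the type II TGF-β receptor, each either untreated in normal culture medium or given H2O2, an oxidant, in serum free medium for 24 h. All cells carried the H2ts6 immortalizing transgene, were grown at 33 °C with interferon gamma and were moved to 37 °C 5 days before the experiment.

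Several features of the groups limit what a difference can be assigned to. The TβRII-/- cells were made in culture from the flox line with a Cre-carrying adenovirus, so each genotype was 1 line and loss of the receptor cannot be told apart from other differences between the lines. H2O2 was given in serum free medium, and the methods of the study put a serum starvation of 24 h before it. Effects of the oxidant and of serum withdrawal, including its longer duration, cannot be told apart. The complete medium contained hydrocortisone; whether the serum free medium did is not given in the sources used here. The time of day at harvest is not given either, and with 1 time point a shift in the phase of a rhythm and a change in its mean level cannot be told apart. Nothing in the labels says that the 3 libraries of a group came from separate cultures, so p-values measure only the spread between these libraries.

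The mammalian clock is a feedback loop of transcription. CLOCK pairs with BMAL1 and binds E-boxes to drive the Per and Cry genes, whose proteins return to inhibit the pair, while the nuclear receptors REV-ERBα and REV-ERBβ (Nr1d1 and Nr1d2) repress Bmal1 and the ROR receptors activate it. DBP and TEF, of the PAR bZIP family, carry the rhythm to output genes through D-boxes, where NFIL3 acts as a repressor. In the kidney the clock sets daily rhythms of tubular transport, and Per1 is also induced directly by glucocorticoids.

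In build GRCm38.p6 the period genes lie as follows: Per1 (transcript ENSMUST00000021271) at chr11:69095108-69109965, Per2 (transcript ENSMUST00000069620) at chr1:91415977-91459351 and Per3 (transcript ENSMUST00000103204) at chr4:150997018-151044707. The cryptochromes are Cry1 (transcript ENSMUST00000020227) at chr10:85131700-85185054 and Cry2 (transcript ENSMUST00000090559) at chr2:92403646-92434085. The output factors are Dbp (transcript ENSMUST00000080885) at chr7:45705100-45710203 and Tef (transcript ENSMUST00000109553) at chr15:81802673-81826863. The REV-ERB genes and the activator are Nr1d1 (transcript ENSMUST00000064941) at chr11:98767932-98775377, Nr1d2 (transcript ENSMUST00000090543) at chr14:18204056-18239106 and Clock (transcript ENSMUST00000202651) at chr5:76209868-76305603. Coordinates span the whole gene, exons and introns.

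The promoters of 3 members are shown because Per1 and Per3 moved most with H2O2 and Tef was then the most abundant per kb. They are RefSeq sequences of build GRCm38.p6, from 250 bases before to 50 bases after an annotated start (for Per1 and Tef, the first of 2 starts), and capitals mark the motifs searched on both strands: the E-box CACGTG, the D-box TTANGTAA and the nuclear receptor half-site AGGTCA. Motif distances are to the start.
Per1, chr11:69098699-69098998, plus strand: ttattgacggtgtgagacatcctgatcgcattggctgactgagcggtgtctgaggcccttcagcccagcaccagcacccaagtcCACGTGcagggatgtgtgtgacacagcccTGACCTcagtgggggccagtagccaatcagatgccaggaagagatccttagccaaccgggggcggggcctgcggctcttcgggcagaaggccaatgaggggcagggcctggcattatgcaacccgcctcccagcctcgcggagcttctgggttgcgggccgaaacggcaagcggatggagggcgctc
Per3, chr4:151044616-151044915, minus strand: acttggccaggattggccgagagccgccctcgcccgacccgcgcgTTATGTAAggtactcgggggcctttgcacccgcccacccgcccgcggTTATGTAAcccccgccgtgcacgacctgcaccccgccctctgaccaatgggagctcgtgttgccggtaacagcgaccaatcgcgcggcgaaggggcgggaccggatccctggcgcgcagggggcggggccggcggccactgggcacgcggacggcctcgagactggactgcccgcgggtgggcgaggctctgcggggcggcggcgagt
Tef, chr15:81802423-81802722, plus strand: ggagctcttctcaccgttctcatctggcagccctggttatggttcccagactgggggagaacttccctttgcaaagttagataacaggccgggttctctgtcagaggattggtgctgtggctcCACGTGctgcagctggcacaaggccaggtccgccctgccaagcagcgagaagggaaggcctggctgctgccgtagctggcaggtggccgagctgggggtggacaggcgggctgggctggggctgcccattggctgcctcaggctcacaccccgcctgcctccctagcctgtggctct
The Per1 window held 1 E-box 166 bases and 1 half-site 137 bases before the start, the Per3 window held 2 D-boxes 205 and 158 bases before it, and the Tef window held 1 E-box 127 bases before it. The window at the other Per1 start held none of these motifs, and that at the other Tef start held 1 E-box 138 bases before it. Among 32851 mouse promoter windows of the same length, 7.15% held an E-box, 2.32% a D-box and 16.3% a half-site. Of the other members with a window, Cry1 had an E-box 60 bases before its start and Nr1d2 a half-site 77 bases before its start. Clock had a half-site in 1 of its 3 windows, 119 bases before that start. The windows of Cry2, Dbp and Nr1d1 held none of these letters, and no window was at hand for Per2. A match is a description of the letters and was not measured as binding.

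Deposited counts per library summed to 51387170 to 69231661 over transcripts, where a read can be counted on several transcripts, and to 15870155 to 20857618 over the transcripts used. Values below are counts scaled to a common library size (normalized counts), and a gene was called higher or lower at an adjusted p under 0.05 in edgeR. Of 9 proximal tubule markers, 4 to 6 had a mean count of at least 10, with summed levels of 1578 to 1912 CPM (counts scaled to the library total) in untreated and 2021 to 2182 in H2O2-treated TβRII flox/flox cells, and 1212 to 1296 and 1235 to 1318 in TβRII-/- cells. Of the 6 proximal tubule markers tested, 5 were lower in TβRII-/- cells in both media and Pax8 was higher (log2 fold changes of 0.26 and 0.45). With H2O2 in flox/flox cells Aqp1 rose (log2 fold change 1.04), while Ggt1 (-1.83) and Pax8 (-0.32) fell and Lrp2 was at 0.03. Slc22a6 was at 0 in all groups, and Slc34a1, Slc5a2 and Hnf4a were at 0 in some. The highest group mean was 0.671 normalized counts for Slc34a1 and 0.371 for Hnf4a, too low to be tested. Slc5a2 had means of 14.8 and 15.2 in flox/flox cells and of 0 and 0.262 in TβRII-/- cells, untreated and with H2O2. The 6 fibroblast and mural markers summed to 30.1 to 31.6 and 14.3 to 16.1 CPM in flox/flox cells and to 136 to 152 and 36.1 to 44.0 CPM in TβRII-/- cells, untreated and with H2O2. Within that list, by log2 fold change, Acta2 (2.41 and 1.83) and Dcn (1.87 and 2.50) were higher in TβRII-/- cells in both media, while Col1a1 (-1.56 and -1.40) and Pdgfrb (-2.74 and -2.93) were lower. Acta2 had the highest counts of the list in every group, with group means of 179 to 2495 normalized counts. Dcn had means of 1.46 and 2.86 in flox/flox and 5.51 and 16.6 in TβRII-/- cells, untreated and with H2O2. Its untreated libraries overlapped between genotypes. The 3 endothelial markers summed to 7.19 to 7.94 and 1.19 to 1.34 CPM in flox/flox cells and to 26.4 to 33.6 and 2.22 to 3.50 CPM in TβRII-/- cells, with Pecam1 and Cdh5 at 0 in untreated TβRII-/- cells and Cdh5 at 0 in H2O2-treated flox/flox cells. Only Kdr of these had a mean count of at least 10, so that sum is nearly all Kdr (1.97 and 1.13 between genotypes, by log2 fold change). The 4 leukocyte markers summed to 7.44 to 8.69 CPM in flox/flox and 12.8 to 15.8 CPM in TβRII-/- cells over both media, with Adgre1 and Cd3e at 0 throughout. That sum is nearly all Cd68 (0.78 and 0.82 between genotypes), the only one with a mean count of at least 10. Distal nephron markers reached at most 0.630 CPM, with Calb1 and Aqp2 at 0 in every group. The part of these marker differences in the clock gene values was not tested, and in bulk RNA fewer cells of a type and less RNA per cell cannot be told apart. Tgfbr2 was lower in TβRII-/- cells in both media (log2 fold change -0.35 untreated and -0.92 with H2O2). With H2O2 it rose in flox/flox cells (0.70, adjusted p = 3.42e-10) and did not pass the test in TβRII-/- cells (0.13, adjusted p = 0.122). In TβRII-/- cells Tgfbr2 was still counted, at 6358 to 7311 normalized counts. Counts over a whole transcript also take reads outside a deleted part, but where in the transcript these reads lay was not tested.

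With H2O2 in serum free medium Per1 fell and Per3 rose in both genotypes. In TβRII flox/flox cells 4 of the 10 members rose (Per3, Dbp, Tef and Nr1d2) and 3 fell (Per1, Cry1 and Clock), where 21.0% of all tested genes rose and 20.5% fell. In TβRII-/- cells 5 rose (the same 4 and Cry2) and 2 fell (Per1 and Clock), where 20.5% of all genes rose and 19.1% fell. The largest changes were those of Per1, which fell to about 0.298 and 0.344 of its untreated level, and Per3, which rose 3.18-fold and 2.37-fold. At the limits used by the study (unadjusted p under 0.01 and a change of at least 1.5-fold) 4 members passed in TβRII flox/flox cells, against 7.56% of all genes, and 3 in TβRII-/- cells, against 7.77%. Libraries of the 2 media did not overlap for 7 members in TβRII flox/flox cells, where 47.4% of all tested genes did not. In TβRII-/- cells they did not overlap for 9 members, where 52.1% of all tested genes did not.

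**Figure D1:**
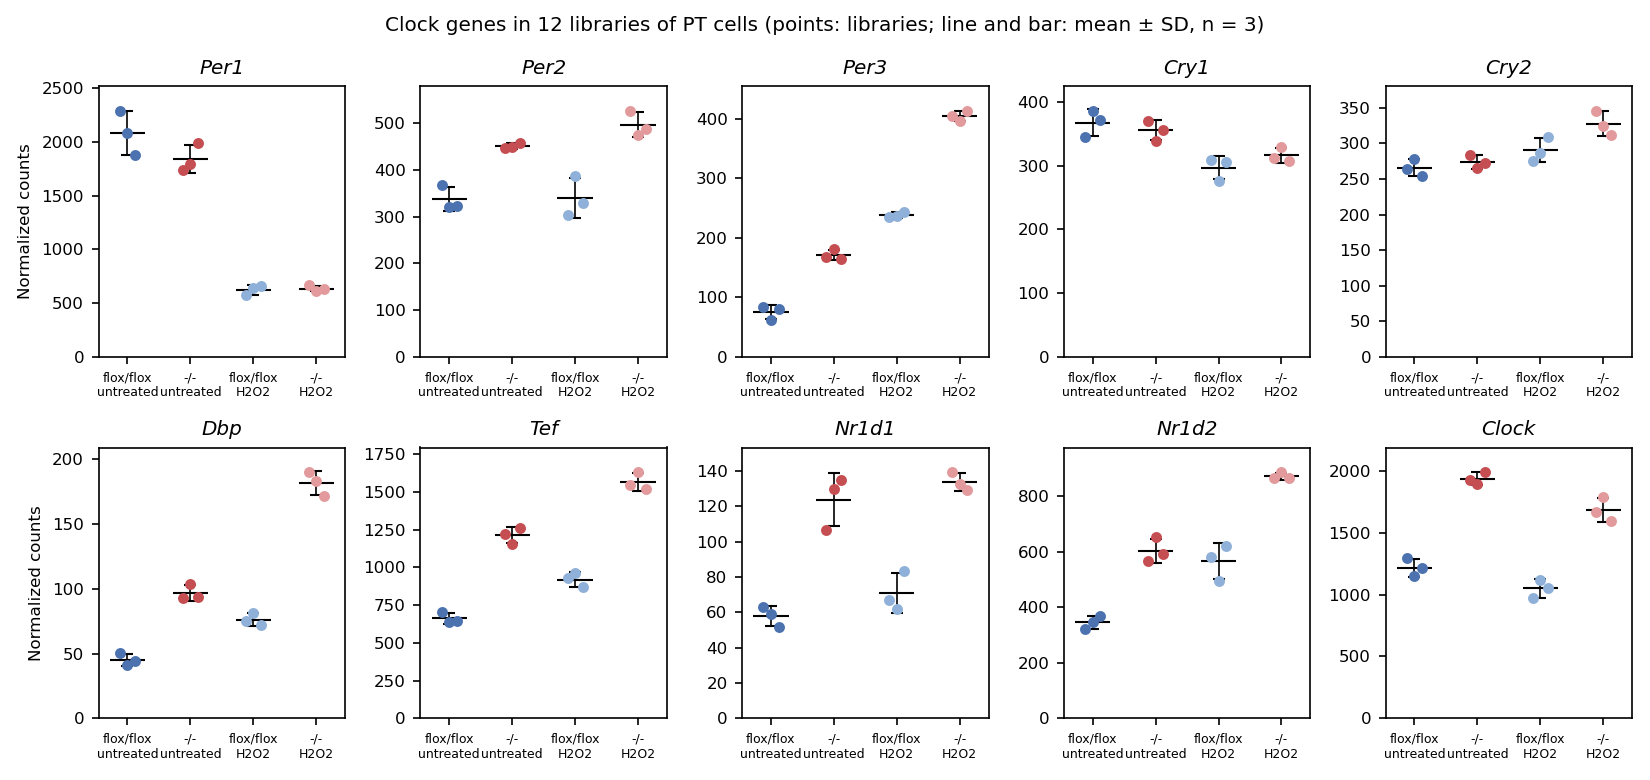
Normalized counts (vertical axis, from 0) of the 10 clock genes in each library of the 4 groups; points are libraries, and the line and bar are the mean and SD of 3 libraries. Per1 fell from 1743 or more to at most 665 with H2O2. By group mean, Per2, Per3, Cry2, Dbp, Tef, Nr1d1 and Nr1d2 were lowest in untreated TβRII flox/flox and highest in H2O2-treated TβRII-/- cells.

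Per1 encodes a period protein of the inhibitory arm. Its normalized counts were 2293, 2083 and 1877 in the 3 untreated TβRII flox/flox libraries and 571, 637 and 657 with H2O2. In TβRII-/- cells they were 1743, 1799.8 and 1991 untreated and 665, 611 and 632 with H2O2. All 6 H2O2 libraries lay below all 6 untreated ones. The log2 fold change was -1.75 ± 0.075 (SE), adjusted p = 3.58e-18 in TβRII flox/flox cells and -1.54 ± 0.073 (SE), adjusted p = 4.27e-17 in TβRII-/- cells. All 6 annotated Per1 transcripts, which share reads, were lower with H2O2 in both genotypes, by log2 fold changes of -2.02 to -1.75 and -1.60 to -1.41.

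Per3, a period gene that is not needed for rhythmicity itself, moved the other way. It had 83.1, 61.2 and 79.6 normalized counts in untreated and 234, 237 and 244 in H2O2-treated TβRII flox/flox libraries. It had 167, 181 and 165 in untreated and 405, 396 and 414 in H2O2-treated TβRII-/- libraries. The 4 groups did not overlap, and H2O2-treated TβRII-/- cells were highest. The log2 fold changes with H2O2 were 1.67 ± 0.12 (SE), adjusted p = 9.97e-13 in TβRII flox/flox cells and 1.24 ± 0.096 (SE), adjusted p = 6.91e-12 in TβRII-/- cells, and all 5 transcripts of the gene had a positive change in each.

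Per2, the third period gene, did not pass the test with H2O2. It had 367, 322 and 324 normalized counts in untreated and 303, 386 and 330.1 in H2O2-treated TβRII flox/flox libraries, which overlapped (log2 fold change 0.01, 95% interval -0.17 to 0.19, adjusted p = 0.947). In TβRII-/- cells it had 447, 448 and 459 untreated and 527, 476 and 488 with H2O2, which did not overlap (log2 fold change 0.14, interval -0.02 to 0.30, adjusted p = 0.187).

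These changes altered the make-up of the Per family. Levels were compared between genes in CPM per kb of the transcript used for each gene, and they depend on that choice of transcript. On this scale Per1 made up 81.6 ± 1.18% (SD, n = 3) of the summed Per level in untreated and 48.7 ± 1.43% in H2O2-treated TβRII flox/flox cells. In TβRII-/- cells its share was 72.2 ± 1.31% untreated and 38.4 ± 0.22% with H2O2. The share of Per3 was 3.26% and 20.8% in TβRII flox/flox cells and 7.47% and 27.2% in TβRII-/- cells, in the same order. The summed Per level was 22.001 ± 2.04 and 21.98 ± 1.15 CPM per kb in the untreated groups and 10.99 ± 0.740 and 14.3 ± 0.529 with H2O2, flox/flox first. The shares are given as a description, with no test.

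**Figure D2:**
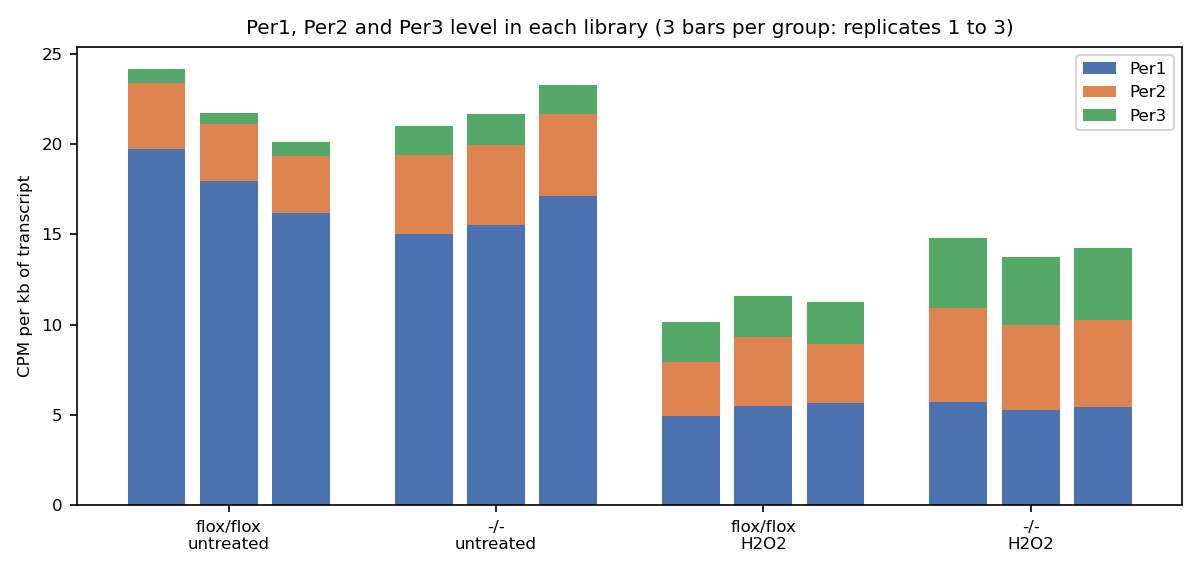
Level of Per1, Per2 and Per3 in CPM per kb of transcript (vertical axis, from 0), stacked for each of the 12 libraries in 4 groups. Per1 made up 81.6% of the sum in untreated TβRII flox/flox cells and 38.4% in H2O2-treated TβRII-/- cells.

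The cryptochromes are partners of the PER proteins in repression. Cry1 had 344, 386 and 372 normalized counts in untreated and 309, 276 and 305 in H2O2-treated TβRII flox/flox libraries, which did not overlap, and it fell (log2 fold change -0.31 ± 0.087 (SE), adjusted p = 0.00471). In TβRII-/- cells it had 370.2, 339 and 356 untreated and 311, 329 and 307 with H2O2, which did not overlap either, but the change of -0.17 (interval -0.33 to -0.00) did not pass the test (adjusted p = 0.116). Cry2 had 284, 265 and 272 untreated and 346, 325 and 311 with H2O2 in TβRII-/- cells and rose (log2 fold change 0.26 ± 0.087 (SE), adjusted p = 0.0179). That call was lost without untreated TβRII-/- replicate 2 (adjusted p = 0.0672) or H2O2-treated TβRII-/- replicate 1 (adjusted p = 0.0899). In TβRII flox/flox cells the Cry2 change was 0.13 (interval -0.05 to 0.31, adjusted p = 0.268).

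The output factors Dbp and Tef rose in both genotypes. Dbp had 50.5, 41.2 and 44.1 normalized counts in untreated and 75.1, 81.6 and 72.2 in H2O2-treated TβRII flox/flox libraries (log2 fold change 0.75 ± 0.17 (SE), adjusted p = 6.17e-04). In TβRII-/- cells it had 93.1, 104 and 93.8 untreated and 190.2, 183 and 172 with H2O2 (log2 fold change 0.91 ± 0.13 (SE), adjusted p = 8.29e-07). Tef, the more abundant of the pair, had 706, 637 and 644 untreated and 927, 961 and 866 with H2O2 in TβRII flox/flox libraries (log2 fold change 0.47 ± 0.068 (SE), adjusted p = 1.42e-06). It had 1217, 1155 and 1261 untreated and 1542, 1629.9 and 1517 with H2O2 in TβRII-/- libraries (log2 fold change 0.37 ± 0.062 (SE), adjusted p = 1.58e-05). For both genes the 4 groups did not overlap. Dbp shared 539 bases of its transcript, or 29.3%, with Sphk2 on the opposite strand in the current mouse annotation. Sphk2 was the more abundant, with a mean of 600 normalized counts over the libraries. The library kit was stranded, but whether the counting used strand is not given in the sources used here, so reads of such a pair cannot be told apart. Sphk2 did not pass the test with H2O2, with log2 fold changes of -0.16 and 0.09. Between genotypes its log2 fold change was 0.15 untreated (adjusted p = 0.101) and 0.40 with H2O2 (adjusted p = 6.91e-05), called higher in TβRII-/- cells like Dbp.

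Of the REV-ERB genes, Nr1d2 passed the test with H2O2 and Nr1d1 did not, and the difference between them was not tested. Nr1d2 (REV-ERBβ) had 321, 347 and 367 normalized counts in untreated and 582, 493 and 619 in H2O2-treated TβRII flox/flox libraries, and 568, 652 and 591 untreated and 864, 886 and 865 with H2O2 in TβRII-/- libraries. It rose in both, with log2 fold changes of 0.71 ± 0.086 (SE), adjusted p = 6.36e-08, and 0.53 ± 0.076 (SE), adjusted p = 1.36e-06. Nr1d1 (REV-ERBα) had 63.1, 59.0 and 51.6 untreated and 67.0, 62.0 and 83.7 with H2O2 in TβRII flox/flox libraries and 107, 129.7 and 135 untreated and 139, 133 and 129 with H2O2 in TβRII-/- libraries. The groups overlapped within each genotype, and the changes of 0.28 (interval -0.06 to 0.63, adjusted p = 0.201) and 0.11 (interval -0.16 to 0.37, adjusted p = 0.55) did not pass the test. The Nr1d1 transcript shared 1338 bases, or 49.2%, with Thra on the opposite strand, so part of its count may belong to Thra. Thra was the more abundant, with a mean of 495 normalized counts over the libraries. Thra had log2 fold changes of -0.45 and 0.07 with H2O2 and of -0.46 and 0.06 between genotypes, untreated and with H2O2.

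Clock, the activator, fell slightly with H2O2. It had 1293, 1148 and 1212 normalized counts in untreated and 974, 1121 and 1056 in H2O2-treated TβRII flox/flox libraries (log2 fold change -0.21 ± 0.066 (SE), adjusted p = 0.00976). It had 1930.5, 1891 and 1990.2 untreated and 1668, 1786 and 1592 with H2O2 in TβRII-/- libraries (log2 fold change -0.20 ± 0.062 (SE), adjusted p = 0.0099). The groups did not overlap in either genotype. The call in TβRII flox/flox cells was lost without untreated replicate 1 (adjusted p = 0.0739) or H2O2-treated replicate 1 (adjusted p = 0.0973), and that in TβRII-/- cells without H2O2-treated replicate 3 (adjusted p = 0.0715). The Clock transcript shared 1165 bases, or 11.8%, with Tmem165 on the opposite strand, so part of its count may belong to Tmem165. Tmem165 had a mean of 2021 normalized counts over the libraries. Tmem165 had log2 fold changes of 0.13 and -0.13 with H2O2, neither called. Between genotypes it was called higher in untreated TβRII-/- cells, like Clock (0.29, adjusted p = 7.35e-05), and was at 0.04 with H2O2.

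**Figure D3:**
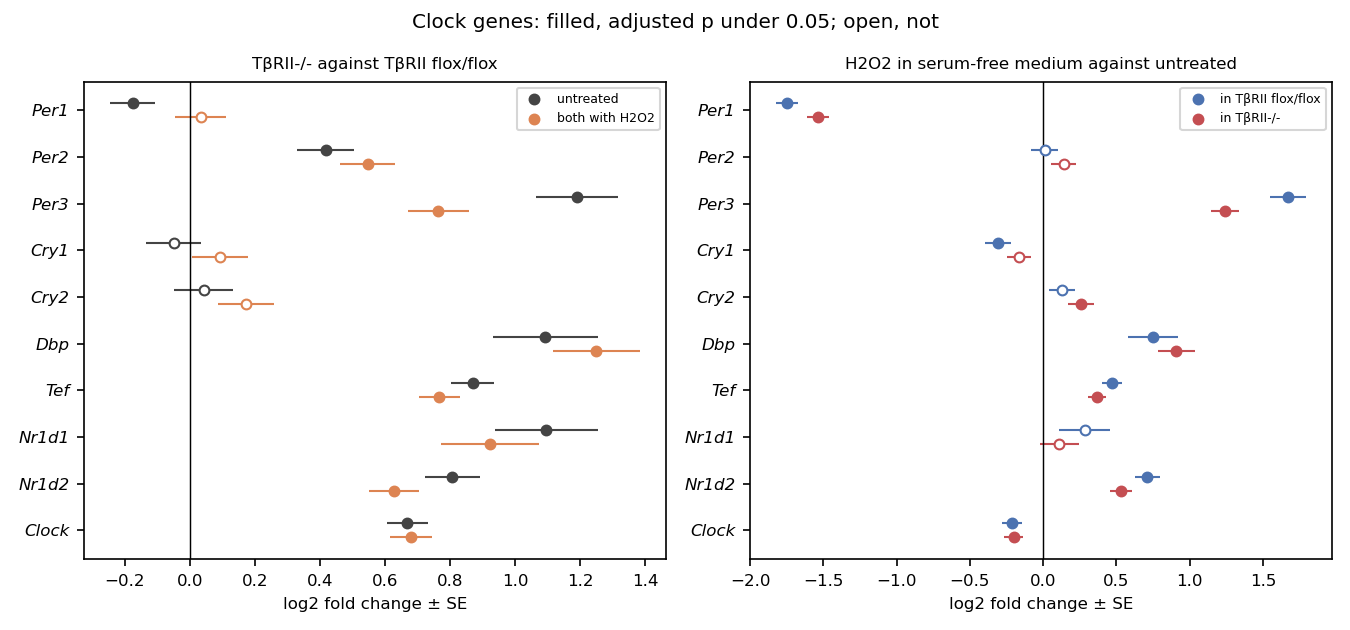
Log2 fold change ± SE (horizontal axes) of the 10 clock genes, left for TβRII-/- against TβRII flox/flox cells in each medium and right for H2O2 in serum free medium against untreated in each genotype; filled points passed an adjusted p of 0.05. On the left Dbp, Nr1d1 and Per3 reached log2 fold changes of 0.76 to 1.25, and on the right Per1 and Per3 lay farthest from 0 on opposite sides.

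The second comparison asked how the genotypes differed in the same medium. In untreated cells 7 members were higher in TβRII-/- cells (Per2, Per3, Dbp, Tef, Nr1d1, Nr1d2 and Clock) and Per1 was lower, where 33.3% of all genes were higher and 31.4% lower. With H2O2 the same 7 members were higher and none was lower, where 35.1% of all genes were higher and 31.3% lower. The limits of the study were passed by 6 members in each medium (Per3, Dbp, Tef, Nr1d1, Nr1d2 and Clock), against 27.0% of all genes untreated and 29.8% with H2O2. The median log2 fold change over the members was 0.74 untreated and 0.65 with H2O2, where that over all genes was 0.01 and 0.02. The members were chosen with earlier results known, so this is a description. The 2 media share no libraries but compare the same 2 lines, so any other difference between the lines can appear in both.

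Per3, Nr1d1 and Dbp differed most between genotypes in untreated cells, 2.28-fold, 2.14-fold and 2.13-fold higher in TβRII-/- cells. Their log2 fold changes were 1.19 ± 0.13 (SE), adjusted p = 7.36e-10 for Per3, 1.097 ± 0.16 (SE), adjusted p = 3.85e-07 for Nr1d1 and 1.09 ± 0.16 (SE), adjusted p = 5.37e-07 for Dbp. With H2O2 they were 0.76 ± 0.093 (SE), adjusted p = 1.30e-08 for Per3, 0.92 ± 0.15 (SE), adjusted p = 2.43e-06 for Nr1d1 and 1.25 ± 0.13 (SE), adjusted p = 7.22e-10 for Dbp. Libraries of the genotypes did not overlap for these 3 genes in either medium, as for 65.3% of all tested genes untreated and 71% with H2O2. Tef, Nr1d2 and Clock were 1.83-fold, 1.75-fold and 1.59-fold higher untreated, and 1.7-fold, 1.55-fold and 1.6-fold higher with H2O2, with adjusted p of at most 1.45e-08. Per2 was 1.34-fold higher untreated and 1.46-fold higher with H2O2 (adjusted p = 1.11e-04 and 1.46e-06).

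The Cry genes and Per1 stood apart from those 7 members. Cry1 had log2 fold changes of -0.05 (interval -0.21 to 0.12) untreated and 0.09 (interval -0.08 to 0.26) with H2O2, and Cry2 of 0.04 (interval -0.14 to 0.22) and 0.17 (interval 0.00 to 0.34), with adjusted p of 0.0799 or more. Per1 was called lower in untreated TβRII-/- cells, at -0.18 ± 0.068 (SE), adjusted p = 0.0248, although libraries of the genotypes overlapped. That call was lost without untreated TβRII flox/flox replicate 1 (adjusted p = 0.194), without untreated TβRII-/- replicate 1 (0.113) or 2 (0.0791), and when counts were summed over transcripts (0.0587). With H2O2 the Per1 difference was 0.03 (interval -0.12 to 0.19, adjusted p = 0.728).

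Some members lie on chromosomes whose genes differed together between the lines. In untreated cells the median log2 fold change over all tested genes was 0.29 on chromosome 5, which holds Clock, and 0.36 on chromosome 15, which holds Tef, beside 0.67 and 0.87 for the genes themselves. It was 0.30 on chromosome 2, which holds Cry2, beside 0.04 for Cry2. Over the 24 nearest tested genes it was 0.29 around Clock, 0.41 around Tef and 0.40 around Cry2. Around Per3, Nr1d1, Dbp and Nr1d2 it was -0.31, -0.18, 0.12 and 0.19. The part of these regional differences in the members' values was not tested.

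Whether H2O2 acted differently in the genotypes was tested as an interaction, the change in TβRII-/- cells minus that in TβRII flox/flox cells. No member was called in edgeR or in DESeq2, where 3.90% of all genes had a positive and 6.28% a negative interaction. At an unadjusted p under 0.05 there was 1 member by each tool. Per3 had the smallest p, with an interaction of -0.43 ± 0.16 (SE, interval -0.74 to -0.12, unadjusted p = 0.0112, adjusted p = 0.0827), a smaller rise in TβRII-/- cells. It passed without untreated TβRII flox/flox replicate 1 (-0.54, adjusted p = 0.0352). The Per1 interaction was 0.21 (interval 0.00 to 0.41, adjusted p = 0.219).

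The order of the members by level per kb differed between media. It depends on the length of the transcript used. Clock was read from a transcript of 9911 bases, and another of 7515 bases held nearly as many counts (17911 and 17017 in total). Untreated, Per1 was first in TβRII flox/flox cells at 17.95 ± 1.79 CPM per kb (SD, n = 3), above Tef at 8.67 ± 0.50. In untreated TβRII-/- cells Per1 and Tef, at 15.9 ± 1.12 and 15.9 ± 0.70, overlapped. With H2O2 Tef was first, at 12.02 ± 0.63 in TβRII flox/flox and 20.5 ± 0.77 in TβRII-/- cells, with Clock next at 6.11 ± 0.43 and 9.78 ± 0.57. Per1 was then at rank 5 of 10 in TβRII flox/flox cells (5.36 ± 0.39), overlapping Cry1 above it, and at rank 6 in TβRII-/- cells (5.48 ± 0.23), overlapping Dbp above it. Per3 was lowest in both untreated groups, at 0.71 ± 0.11 and 1.64 ± 0.08, and Nr1d1 with H2O2, at 1.501 ± 0.24 and 2.83 ± 0.11.

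Of 19 other listed clock genes, 16 passed the filter; Npas2, Rorb and Hlf did not. With H2O2 1 rose and 7 fell in TβRII flox/flox cells, and 3 rose and 5 fell in TβRII-/- cells, where of all genes 21.0% rose and 20.5% fell, and 20.5% rose and 19.1% fell. Nfil3, the repressor at D-boxes, fell in both, with log2 fold changes of -1.004 ± 0.097 (SE), adjusted p = 6.50e-10, and -1.01 ± 0.093 (SE), adjusted p = 3.27e-10. Bmal1, the partner of CLOCK, fell in both (-0.48 and -0.39, adjusted p = 3.83e-05 and 9.16e-05), as did Noct (-0.45 and -0.38), Csnk1e (-0.20 and -0.22) and Usp2 (-1.32 and -0.87). CSNK1E is a kinase of PER proteins and USP2 a deubiquitinase. Timeless rose in both (0.33 and 0.44).

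Between genotypes, 5 of these 16 genes were higher and 6 lower in untreated TβRII-/- cells, and 7 were higher and 5 lower with H2O2, where of all genes 33.3% were higher and 31.4% lower untreated and 35.1% and 31.3% with H2O2. These counts lie near the shares over all genes. Bmal1 was higher in TβRII-/- cells, with 433, 354 and 415 normalized counts in untreated TβRII flox/flox and 702, 649 and 648 in untreated TβRII-/- libraries, which did not overlap (log2 fold change 0.73 ± 0.078 (SE), adjusted p = 9.30e-10). With H2O2 its log2 fold change was 0.82 (adjusted p = 2.32e-10). Rora (1.60 and 1.93), Bhlhe41 (0.40 and 0.79) and Cipc (0.19 and 0.32) were also higher in both media. Bhlhe40, a repressor at E-boxes, was lower (-1.43 and -1.19), as were Bmal2 (-0.70 and -0.56), Noct (-0.50 and -0.43), Fbxw11 (-0.28 and -0.14) and Csnk1e (-0.14 and -0.17). The interaction passed for Bhlhe41 (0.40, adjusted p = 0.00402) and Csnk1d (0.27, adjusted p = 0.0315).

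Of the remaining genes on that list, Ciart was higher in untreated TβRII-/- cells (0.58, adjusted p = 0.00427), Usp2 was lower there (-0.60), and Csnk1d, Btrc and Fbxl21 were higher in TβRII-/- cells with H2O2 (0.21, 0.38 and 1.13). With H2O2 Bhlhe40 and Btrc rose in TβRII-/- cells (0.35 and 0.31), while Bhlhe41 and Csnk1d fell in TβRII flox/flox cells (-0.38 and -0.27).

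Since Per1 is a glucocorticoid target, 9 glucocorticoid-induced genes were read beside it. With H2O2 in serum free medium 7 fell and 1 rose in each genotype, where of all genes 20.5% fell and 21.0% rose in TβRII flox/flox cells and 19.1% fell and 20.5% rose in TβRII-/- cells. The list had a median log2 fold change of -1.24 in TβRII flox/flox and -1.08 in TβRII-/- cells, where that over all genes was 0.01 and 0.02. This list too was chosen with earlier results of these data known. Tsc22d3, which encodes GILZ, changed by -1.75 and -1.68, and Fkbp5, a co-chaperone of the glucocorticoid receptor, by -1.24 and -1.15. Dusp1 (-1.45 and -1.08), Klf9 (-0.77 and -0.53), Sgk1 (-1.93 and -3.03) and Zbtb16 (-3.89 and -2.08) also fell in both. Errfi1 fell less (-0.29 and -0.14), Mt2 rose (0.58 and 0.27), and Cebpd did not pass (-0.34 and 0.03). Of 9 serum-induced immediate early genes, 3 rose and 3 fell in TβRII flox/flox cells and 4 rose and 1 fell in TβRII-/- cells, against the same shares. Among them Egr1 (0.88 and 0.46), Egr2 (1.18 and 1.58) and Fos (0.57 and 0.59) rose in both, and Myc fell in both (-0.40 and -0.20). Egr2 was at low counts, with group means of 6.58 to 20.0 normalized counts. Srf fell in TβRII flox/flox cells (-0.25, and -0.04 in TβRII-/- cells without passing), and Jun fell in TβRII flox/flox and rose in TβRII-/- cells (-0.17 and 0.29). Between genotypes 6 of the 9 glucocorticoid-induced genes were higher and 3 lower in untreated TβRII-/- cells, and 5 were higher and 2 lower with H2O2. Of all genes 33.3% were higher and 31.4% lower untreated, and 35.1% and 31.3% with H2O2. Per1 had log2 fold changes of -0.18 and 0.03 in these comparisons. The part of the hormone or serum content of the media in the Per1 values was not tested.

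**Figure D4:**
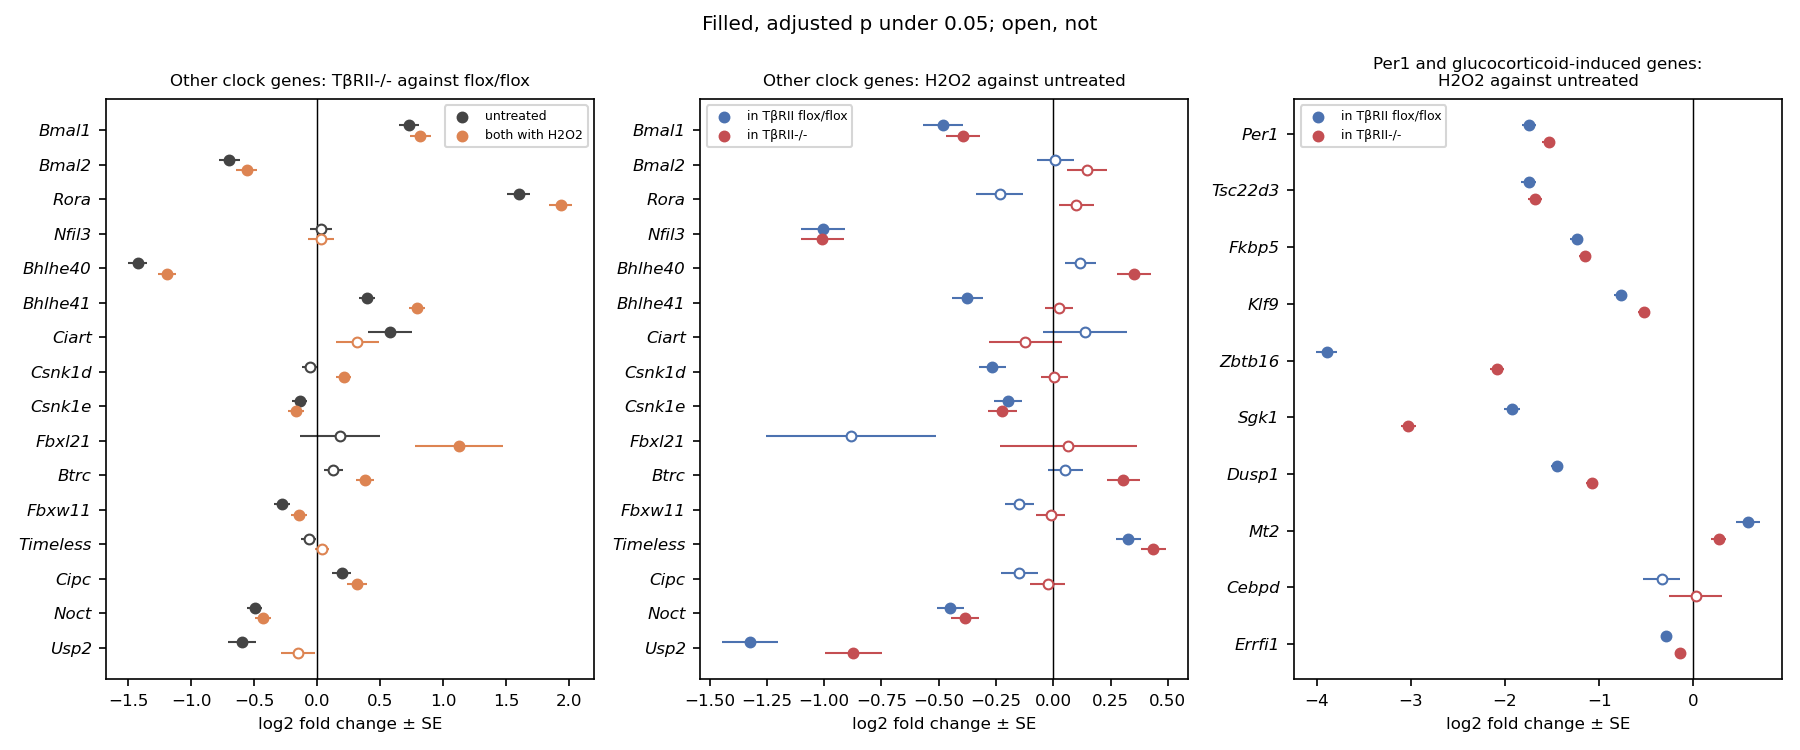
Log2 fold change ± SE (horizontal axes) of 16 other clock genes between genotypes (left) and with H2O2 (middle), and of Per1 and 9 glucocorticoid-induced genes with H2O2 (right); filled points passed an adjusted p of 0.05. On the right Per1 lies at -1.75 in TβRII flox/flox and -1.54 in TβRII-/- cells. The 9 glucocorticoid-induced genes run from -3.89 to 0.58 in TβRII flox/flox and from -3.03 to 0.27 in TβRII-/- cells.

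Among 12595 other protein-coding genes, those whose log2 CPM followed a member most closely over the 12 libraries were found by Pearson correlation, a description over libraries that share 4 groups. For Per1 they were Selenow (r = 0.988), Dusp1 (0.988) and Hif3a (0.987), and for Per3 they were Itgb8 (0.983), Stk38l (0.981) and Ttyh2 (0.980). For Tef they were Sorl1 (0.994), Zfp467 (0.991) and Ogdhl (0.990), and for Dbp Aifm3 (0.987), Clu (0.987) and Pgap1 (0.986). For Nr1d1 they were Slc22a15, Apobr and Nsd2 (0.982 to 0.989), for Nr1d2 Slc25a1 (0.985) and Csad (0.983), and for Clock Stard13, Synpo2l and Stam (0.986 to 0.990). For Per2 they were Sh3bp2, Ncoa3 and Ifnlr1 (0.972 to 0.976), for Cry1 Aida, Dlat and Arf1 (0.943 to 0.954), and for Cry2 Ypel3, Arl4c and Ip6k1 (0.909 to 0.922). The Cry genes had the lowest of these values.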

How the data were processed

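RNA from 12 libraries was sequenced on an Illumina instrument after stranded TruSeq mRNA library preparation. The authors trimmed reads with fastp, aligned them with STAR to GRCm38.p6 and counted them with featureCounts, and the deposited values are raw counts per transcript, with no normalization and a read counted on each transcript it overlaps. Tests had been planned on counts per gene; 104820 of 106332 transcripts matched a current annotation, and the transcript with the highest total stood for each of 25514 genes. The 1512 unmatched transcripts, holding 1.22 to 1.28% of counts, were left out. edgeR 4.0.16 (R 4.3.3; TMM, filterByExpr, 1 mean per group) gave quasi-likelihood tests, with Benjamini-Hochberg adjustment over 12971 genes and a call at an adjusted p under 0.05. Normalized counts are scaled to the mean effective library size of 17351835. DESeq2 1.42.0 was an alternative. The fit was tested on simulated data. Intervals are 95% normal intervals from the SE of the fit and are slightly narrower than the quasi-likelihood test. All 10 clock genes and the other tested clock genes are named; of the glucocorticoid and immediate early lists, those past 1.5-fold and the test in either genotype, and the remaining called or glucocorticoid genes and the marker genes after their values were seen; and the 3 genes most correlated with each member. A few genes of these lists are not reported here, and counts over the other clock genes leave them out. The members and lists were chosen with earlier results of these data known. Replicates of a group differed by more than sampling noise (chi-square per gene 3.58 to 12.0), and none were merged. The labels give the H2O2 dose in another unit than the methods, so no dose is given.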

Additional observations from a re-analysis of the deposited data

How the results depend on the processing

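Over 50 member values (10 genes in 5 contrasts), 940 recomputed values kept direction and call in 917, lost the call in 9, gained it in 1 and changed sign in 13; those that changed sign were not called in the fit reported. Clock's interaction of 0.01 became -0.00412 with DESeq2 size factors, -0.00421 in DESeq2 and -0.0415 with counts summed over transcripts, and ran from -0.0667 to 0.0506 with 1 library left out. With 1 library left out, the Per1 difference between genotypes with H2O2 ran from -0.0584 to 0.0633, and the Per2 change with H2O2 in TβRII flox/flox cells from -0.0918 to 0.0962. The number of members called ran from 7 to 8 between untreated genotypes, 6 to 7 for H2O2 in each genotype and 0 to 1 for the interaction, and was 7 throughout between H2O2-treated genotypes. At the limits of the study 4 members were called with H2O2 in TβRII flox/flox cells and 3 in TβRII-/- cells, against 7 each, since smaller changes miss 1.5-fold. Replicates share only a number: over 18 same-numbered pairs the correlation of deviations was -0.101 to 0.0582, none over 0.1, and 2 of 12 libraries were closest to their own number. With the replicate block 8, 7, 7, 7 and 0 members were called, as without it. In untreated cells and in H2O2-treated TβRII flox/flox cells counts were lowest for Dbp, Nr1d1 and Per3; in H2O2-treated TβRII-/- cells they were lowest for Nr1d1 and Dbp.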
